A study of Mus musculus with 8 samples.

Results

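The genes described here encode the enzymes and factors that copy and transcribe mitochondrial DNA (mtDNA): Polg, Polg2, Twnk, Ssbp1 and Top1mt for replication, and Polrmt, Tfam, Tfb2m, Tfb1m and Lrpprc for transcription and for the handling of its products. They were chosen by symbol, and all 10 were found among the 54532 genes of the table. Expression was measured in heart tissue of mice at postnatal day 4, in 4 libraries from control littermates that carry a floxed Mrps5 allele (Mrps5 fl/+) and 4 from cHET littermates that carry the same allele and the Myh6-Cre transgene (Mrps5 fl/+; Myh6-Cre). Myh6 is a cardiomyocyte gene, so its promoter drives Cre in cardiomyocytes, other heart cells keep both alleles, and a Cre-only group is not among the samples. Mrps5 codes for one of the mitoribosomal proteins (small subunit). The question behind the set is whether the nuclear genes that maintain and transcribe mtDNA differ between these hearts, and how they stand beside the RNA that mtDNA itself encodes.

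As background, mtDNA is a small circle that encodes rRNAs, tRNAs and core subunits of the respiratory chain, while every protein that copies or transcribes it comes from nuclear genes. At the replication fork Twnk unwinds the DNA, Ssbp1 coats the single strands, Polg synthesises DNA with the help of its accessory subunit Polg2, and Top1mt relieves the strain. Polrmt, the mitochondrial RNA polymerase, starts transcription at promoters of both strands with Tfam, which also packs mtDNA into nucleoids, and with Tfb2m. Tfb1m, related to Tfb2m, is known as an rRNA methyltransferase, and Lrpprc with its partner Slirp stabilises mitochondrial mRNAs. In the heart around birth, mitochondria expand as the muscle turns to oxidative metabolism.

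Nuclear genes of this kind are textbook targets of ETS-family factors such as Gabpa, so their promoters are shown first, for the 6 members in which the ETS word CCGGAAG was found. A RefSeq promoter (GRCm38.p6) was matched for 9 of the 10 members. The 250 bases before each start were searched for CCGGAAG on both strands (CTTCCGG on the other strand). This ETS word was present in 6 of the 9 (Ssbp1, Polg, Tfam, Polrmt, Polg2 and Twnk), against 7.83% of 27025 genes with a promoter in that table and 16.1% of the 9228 of them that were tested for expression here. The 120 bases before the start are given 5′ to 3′ in the direction of transcription, with the ETS word in capitals. Starts here are those of RefSeq. The deposited table places the start of Ssbp1 (40471352), Polg (79466362) and Tfam (71238280) further upstream. For these genes the ETS word lies inside the gene as listed there.
Ssbp1, chr6:40471348-40471467, plus strand: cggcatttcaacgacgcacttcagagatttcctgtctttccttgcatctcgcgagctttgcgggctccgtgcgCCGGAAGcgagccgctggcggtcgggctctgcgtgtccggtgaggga
Polg, chr7:79466274-79466393, minus strand: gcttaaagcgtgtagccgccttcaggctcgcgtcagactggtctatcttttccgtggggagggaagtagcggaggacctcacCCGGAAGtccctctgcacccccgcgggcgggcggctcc
Tfam, chr10:71238045-71238164, minus strand: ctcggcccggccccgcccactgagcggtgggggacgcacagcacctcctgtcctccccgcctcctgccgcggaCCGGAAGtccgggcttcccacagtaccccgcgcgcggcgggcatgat
Polrmt, chr10:79746582-79746701, minus strand: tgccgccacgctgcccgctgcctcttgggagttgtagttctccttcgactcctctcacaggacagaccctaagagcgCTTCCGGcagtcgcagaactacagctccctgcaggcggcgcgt
Polg2, chr11:106779538-106779657, minus strand: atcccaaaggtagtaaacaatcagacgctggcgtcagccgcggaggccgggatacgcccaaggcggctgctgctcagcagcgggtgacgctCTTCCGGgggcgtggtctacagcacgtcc
Twnk (the second of 2 starts), chr19:45006438-45006557, plus strand: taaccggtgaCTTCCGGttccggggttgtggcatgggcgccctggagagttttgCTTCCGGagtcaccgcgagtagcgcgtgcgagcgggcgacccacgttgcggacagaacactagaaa

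The ETS word begins 47 bases before the RefSeq start in both Ssbp1 and Tfam, 43 before it in Polrmt, 38 in Polg and 29 in Polg2. Twnk has the word at 110 and 66 bases before the start. In the windows of Tfb2m, Tfb1m and Lrpprc the whole word was not found. Shorter parts of it were not counted, and the window of Tfb1m holds TTCCGG and that of Tfb2m GGAAG. The NRF1 core and a word of YY1 (AAGATGGC), searched on both strands, were found in 0 of the 9 windows, against 9.55% and 2.50% of the tested genes. A match is a run of letters and does not show binding. Among the genes for these factors, Gabpa averaged 11.1 ± 1.26 FPKM (control) and 11.2 ± 0.892 (cHET), Nrf1 2.54 ± 0.132 and 2.50 ± 0.240, and Yy1 13.1 ± 0.998 and 13.04 ± 0.184 (SD, n = 4). FPKM is the number of reads of a gene scaled to its length and to the depth of the library.

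Depth was 15490622 to 19234777 reads per library, rebuilt from the FPKM values. Mrps5 itself, the targeted gene, was at 11.6, 6.27, 10.1 and 5.15 FPKM in the libraries labelled control 1 to 4 and at 6.84, 7.12, 6.995 and 7.68 FPKM in those labelled cHET 1 to 4 (exact permutation test, n = 4 per group, two-sided p = 0.486). Control 2 and control 4 thus lay below every cHET library, so the value goes against those 2 labels, and control and cHET below mean the libraries so labelled. Which exon is floxed is not given, so this checks the labels only in part. All 8 cardiomyocyte markers were present, with a summed level of 15591 to 17866 FPKM in control and 14716 to 18039 in cHET. Brown fat markers summed to 62.7 and 57.1 FPKM in control 1 and control 2 and 43.3 in cHET 2, against 25.2 to 34.0 in the others, where Ucp1, its defining gene, was at 1.62 FPKM or less. The 6 proliferation markers summed to 122 to 169 FPKM in control and 167 to 226 in cHET. Other markers set single libraries apart too. Leukocyte markers summed to 115 and 182 FPKM in control 1 and control 2 and to 59.2 to 92.7 in the other 6, red cell markers to 8041 in control 2 and to 993 to 2555 in the others, and atrial markers to 241 in cHET 3 and to 1459 to 5277 in the others. The part of these cell types in the results below was not tested. In heart tissue, fewer cells of a type and less RNA per cell cannot be told apart.

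No difference between the groups was detected for any member: 0 of 10 passed the test across all genes (limma, Benjamini-Hochberg adjusted p 0.633 to 0.983), where 0.023% of the 13029 genes tested did. Before adjustment 0 of 10 had a p under 0.05, against 8.95% of all genes tested (5.03% higher and 3.92% lower in cHET). The values of the groups overlapped for each of the 10, while they did not for 4.74% of all genes (2.74% higher in cHET). All 10 members passed the filter of a mean of at least 1 FPKM. Their log2 fold changes, computed on log2(FPKM + 1), ran from -0.25 to 0.10 with 6 above 0 and 4 below (52.1% of all genes were above 0), and their median was 0.013 beside 0.0086 over all genes. The plot of fold changes gives each with its 95% interval.

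**Figure D1:**
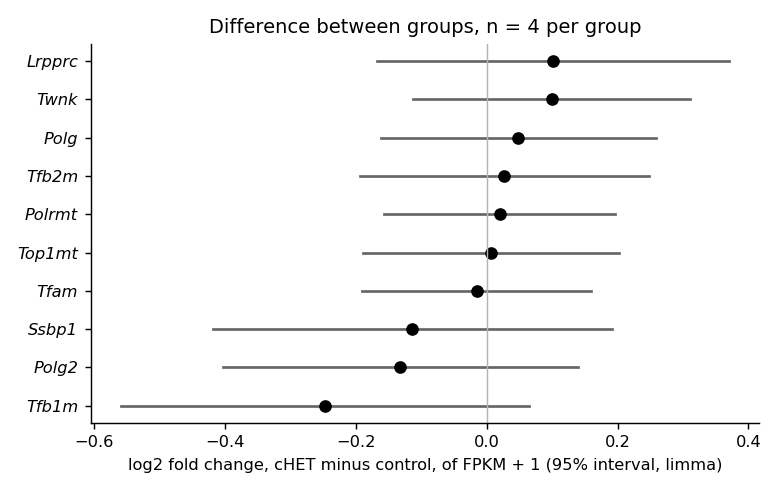
Log2 fold change of each member, cHET minus control, on log2(FPKM + 1), with its 95% interval from limma (n = 4 per group). The points lie between -0.25 and 0.10, and each interval includes 0.

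The members were ranked by their mean level per length, shown in the plot of FPKM by library. The neighbouring pairs tested below come from that ranking of the same values, so their p-values only describe how regularly the libraries kept it. Over the 8 libraries Lrpprc averaged 19.5 FPKM, Tfam 11.5, Polrmt 9.01, Tfb2m 8.22, Twnk 6.83, Polg 5.92, Ssbp1 5.22, Top1mt 4.93, Tfb1m 2.46 and Polg2 1.28. Within libraries, Lrpprc was above Tfam, Tfam above Polrmt, Tfb2m above Twnk, Top1mt above Tfb1m and Tfb1m above Polg2 in 8 of 8 (exact paired permutation tests, adjusted over 9 neighbouring pairs, p = 0.0141 each). Polrmt was above Tfb2m and Twnk above Polg in 7 of 8 (exact permutation, adjusted p = 0.0201 each). Polg and Ssbp1 (exact permutation, adjusted p = 0.149) and Ssbp1 and Top1mt (0.469) were not separated. This order uses the gene lengths of the deposited table, which join all exons of a gene. With the longest principal transcript of GENCODE M21 in their place, Ssbp1 moved from place 7 to 4, since its table length of 8360 bases is 1.90 times that of the transcript, Tfb2m moved from 4 to 5, Twnk from 5 to 7, Top1mt from 8 to 9 and Tfb1m from 9 to 8. Per kilobase of that transcript, Tfb1m (6.34) then stood above Top1mt (5.32) and Polg (8.17) above Twnk (6.87), the reverse of their order above. Lrpprc, Tfam and Polrmt stayed the first 3 and Polg2 the last.

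**Figure D2:**
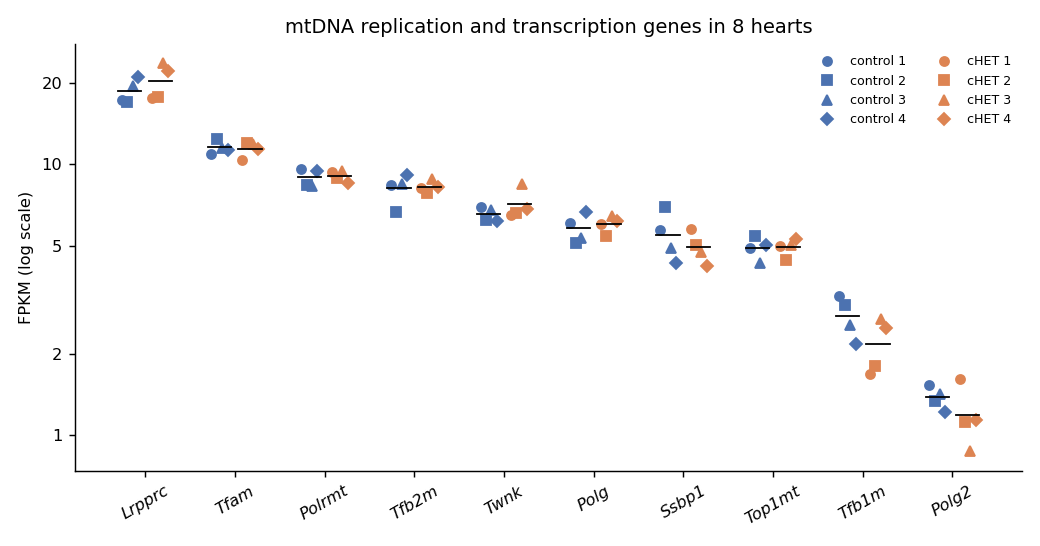
FPKM of the 10 members (log scale) in every library, control in blue and cHET in orange, with a marker shape for each replicate number and a line at each group mean. The order runs from Lrpprc at 17.05 to 23.6 FPKM down to Polg2 at 0.872 to 1.61 FPKM, and the 2 groups overlap for every member.

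Among the replication genes, Polg (ENSMUSG00000039176, chromosome 7, 79446231 to 79466362, minus strand, GRCm38), the catalytic subunit of the mtDNA polymerase, was at 6.09, 5.15, 5.35 and 6.67 FPKM in control 1 to 4 and at 6.03, 5.45, 6.46 and 6.16 in cHET 1 to 4. The cHET values lay within the span of the controls. The log2 fold change was 0.049 (95% interval -0.16 to 0.26), so the interval in fold ran from 0.894 to 1.197, and with 1 library left out the value ran from 0.0011 (without control 2) to 0.11 (without control 4). Polg2 (ENSMUSG00000020718, chromosome 11, 106768253 to 106779537, minus strand), the accessory subunit, was at 1.54, 1.34, 1.43 and 1.22 FPKM in control and at 1.61, 1.12, 0.872 and 1.14 in cHET. Of the cHET libraries 3 lay below every control and 1, cHET 1, above them all. The log2 fold change was -0.13 (-0.40 to 0.14), and with 61 to 120 reads per library this is the least deeply counted member. The value was -0.061 without cHET 3 and -0.22 without cHET 1.

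Twnk (ENSMUSG00000025209, chromosome 19, 45006558 to 45012762, plus strand), the replicative helicase, was at 6.98, 6.25, 6.76 and 6.20 FPKM in control and at 6.51, 6.62, 8.50 and 6.83 in cHET. The library cHET 3 stood above the other 7, which lay within 6.20 to 6.98. The log2 fold change was 0.10 (95% interval -0.11 to 0.31), and 0.022 without cHET 3, the library with the lowest atrial markers. Twnk starts 116 bases from the start of Mrpl43, a mitoribosomal protein gene on the opposite strand, and shares 11.6% of its 50-base words with transcripts of it. Mrpl43 averaged 42.4 ± 4.29 FPKM (control) and 40.8 ± 3.42 (cHET) (SD, n = 4; limma, adjusted p = 0.87). Top1mt (ENSMUSG00000000934, chromosome 15, 75657035 to 75678800, minus strand), the mitochondrial topoisomerase, was at 4.92, 5.42, 4.31 and 5.02 FPKM in control and at 5.01, 4.42, 5.03 and 5.30 in cHET, with a log2 fold change of 0.0064 (-0.19 to 0.20). Its value was the nearest to 0 of the 10, and it was below 0 under quantile normalization (-0.020).

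Ssbp1 (ENSMUSG00000029911, chromosome 6, 40471352 to 40484700, plus strand), the single-strand binding protein, varied most among the replication genes next to Polg2. It was at 5.71, 6.99, 4.91 and 4.32 FPKM in control 1 to 4 and at 5.79, 5.03, 4.75 and 4.23 in cHET 1 to 4. Control 2 was the highest and cHET 4 the lowest, a ratio of 1.65, and the groups overlapped. The log2 fold change was -0.11 (95% interval -0.42 to 0.19) and was -0.0071 without control 2, -0.20 without control 4 and 0.08 without control 1 and control 2, the libraries with the highest brown fat and leukocyte markers. The coefficient of variation over the 8 libraries was 17.5%, where counting alone gives 3.7%. A processed pseudogene, Gm12115, holds 1.64% of its words.

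Among the transcription genes, Polrmt (ENSMUSG00000020329, chromosome 10, 79736123 to 79746581, minus strand) was at 9.62, 8.36, 8.33 and 9.47 FPKM in control and at 9.34, 8.93, 9.49 and 8.54 in cHET. Every cHET library lay inside the span of the controls, and the log2 fold change was 0.020 (95% interval -0.16 to 0.20). Tfam (ENSMUSG00000003923, chromosome 10, 71225464 to 71238280, minus strand) was at 10.9, 12.4, 11.5 and 11.3 FPKM in control and at 10.4, 12.004, 11.9 and 11.4 in cHET. Its log2 fold change was -0.015 (-0.19 to 0.16), or 0.877 to 1.12 in fold, and was above 0 in FPKM rescaled to equal totals (TPM, 0.08), in the scaling without mtDNA-encoded genes (0.046) and in voom (0.0091). Tfam and Polrmt had the lowest coefficients of variation of the 10, at 5.62% and 5.97%, and the median was 9.95% over the members and 14.8% over all genes tested.

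Tfb2m (ENSMUSG00000026492, chromosome 1, 179528055 to 179546267, minus strand), the initiation factor, was at 8.38, 6.65, 8.43 and 9.15 FPKM in control and at 8.18, 7.84, 8.86 and 8.26 in cHET. The cHET values again lay within the controls (log2 fold change 0.027, 95% interval -0.19 to 0.25). An unprocessed pseudogene, Gm1818, holds 31.9% of the 50-base words of Tfb2m, so reads could be split between them and the level is uncertain. Tfb1m (ENSMUSG00000036983, chromosome 17, 3519256 to 3557781, minus strand), the rRNA methyltransferase, had the largest fold change of the members and varied most. It was at 3.26, 3.02, 2.55 and 2.17 FPKM in control and at 1.69, 1.81, 2.69 and 2.49 in cHET. The libraries cHET 1 and cHET 2 were below every control, and the other 2 cHET libraries lay among them. The means were 2.75 ± 0.490 and 2.17 ± 0.497 FPKM (SD, n = 4), the log2 fold change was -0.25 (95% interval -0.56 to 0.065; limma, adjusted p = 0.633), and the coefficient of variation was 22.5% against 8.24% from counting. Tfb1m overlaps Tiam2 and Cldn20.

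Lrpprc (ENSMUSG00000024120, chromosome 17, 84705247 to 84790789, minus strand), which stabilises mitochondrial mRNAs, was at 17.3, 17.05, 19.5 and 21.1 FPKM in control and at 17.6, 17.7, 23.6 and 22.1 in cHET. The libraries cHET 3 and cHET 4 were above every control, and cHET 1 and cHET 2 were near the lowest controls. The log2 fold change was 0.10 (95% interval -0.17 to 0.37), 0.027 without cHET 3, where the atrial markers were lowest, and -0.012 without control 1 and control 2. Its partner Slirp was listed at 0.354 to 1.68 FPKM and did not pass the filter. Transcripts of the neighbouring gene Snw1 hold 89.5% of the words of Slirp, so its reads could be assigned elsewhere and its level is uncertain.

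Ratios of 2 genes within a library do not depend on how the library is scaled, and 8 were compared. None passed a test between the groups (exact permutation tests, adjusted over 8 ratios, p 0.686 to 0.857; 0 of 8 had an unadjusted p under 0.05, and the smallest possible is 0.0286). Even at that smallest p, a single ratio would not pass after adjustment over 8, so the adjusted test could not detect a difference in a single ratio. Polg2 to Polg was 0.240 ± 0.0388 in control and 0.198 ± 0.0547 in cHET. Tfb2m to Tfb1m had the smallest unadjusted p, at 2.57, 2.20, 3.31 and 4.22 in control and 4.85, 4.34, 3.29 and 3.32 in cHET (exact permutation test, p = 0.143). Control 3 and control 4 lay among the cHET values and the groups overlapped. Tfam to Polrmt was 1.30 ± 0.165 and 1.26 ± 0.105, and the elongation factor Tefm to Polrmt 1.22 ± 0.146 and 1.05 ± 0.111. Slirp to Lrpprc spread most, from 0.0168 in control 4 to 0.0983 in control 2 (SD, n = 4, for the means in this paragraph).

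The RNA that these genes help to make was set beside them as the share of summed FPKM from the mitochondrial chromosome. It was 26.8, 23.2, 20.6 and 19.5% in control 1 to 4 and 23.7, 20.6, 20.3 and 17.9% in cHET 1 to 4. The group means were 22.5 ± 3.25% and 20.6 ± 2.38% (SD, n = 4; exact permutation test, two-sided p = 0.429), with control 1 the highest, cHET 4 the lowest and the groups overlapping. The difference, cHET minus control, was -1.88 percentage points, and with 1 library left out it was -0.45 without control 1, -0.98 without cHET 4, -2.89 without control 4 and -2.91 without cHET 1. Control 1 and control 2 are also the libraries with the highest brown fat and leukocyte markers, and without both the difference turned to 0.60 percentage points (exact permutation test, p = 0.8). The part of these markers in the share was not tested. The 10 members together made up 0.0183 ± 0.00277% of that sum in control hearts and 0.0198 ± 0.00158% in cHET hearts (exact permutation test, n = 4 per group, p = 0.4), so the 13 protein genes of mtDNA had 809 to 1467 times the summed FPKM of the 10 genes in single libraries. This ratio, the light-strand gene mt-Nd6 over the heavy-strand protein genes, and the rRNA genes over the protein genes were tested as a family of 3. The last had the smallest p, with means of 0.0261 ± 0.00206 and 0.0225 ± 0.00243 (exact permutation test, n = 4 per group, p = 0.0857, adjusted p = 0.257). In a family of 3 too, a single ratio at the smallest possible p would not pass after adjustment. Libraries were made from poly-T purified RNA, which catches rRNA only in part. The gene mt-Nd6 overlaps mt-Nd5 on the opposite strand, and whether counting used strand is not given. The strand from which its reads come is therefore uncertain, and so is that ratio.

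Levels within mtDNA need care, because nuclear copies of it exist. Of the 13 protein genes, mt-Co2, mt-Atp6, mt-Co3, mt-Nd3 and mt-Nd4l had 98.0 to 100% of their 50-base words in transcripts of another gene, and these are pseudogenes on chromosome 1 (Gm28661, Gm10925, Gm28437, Gm28438 and Gm10222). The same 5 averaged 111 to 519 FPKM, while mt-Nd1, mt-Cytb and mt-Nd6, with 0% of words shared, averaged 17052, 15825 and 6923 FPKM in control and 14200, 13438 and 5415 in cHET. The pseudogenes were themselves listed at 31.6 to 322 FPKM on average. The short gene mt-Atp8, with 0% of words shared, was at 3.95 to 18.9 FPKM and does not follow this pattern, and mt-Co1 and mt-Nd4, with 51.1 and 62.2% shared, were at 23119 and 6200 FPKM on average. The values of the 5 genes are therefore uncertain, mt-Co3 among them. It was at 168, 251, 226 and 264 FPKM in control and 143, 114, 103 and 127 in cHET, with no overlap (log2 fold change -0.88, SE 0.167; limma, adjusted p = 0.275). It was the only one of the 13 whose groups did not overlap, where 4.74% of all genes tested did not. Over the 8 mtDNA protein and rRNA genes with under 10% of words shared, a set chosen after seeing the data, the share of summed FPKM was 12.9 ± 1.83% (control) and 11.98 ± 1.17% (cHET), and the groups overlapped (exact permutation test over 4 and 4 libraries, p = 0.4).

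**Figure D3:**
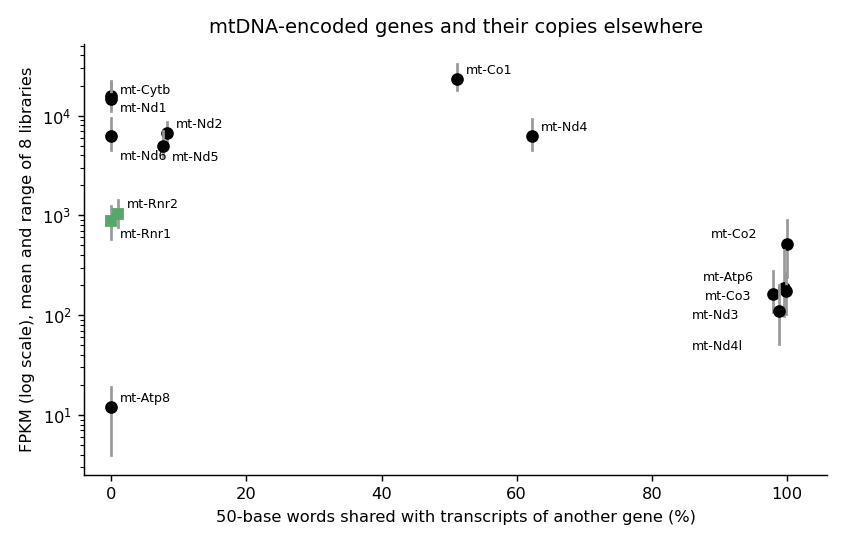
Mean FPKM (log scale) of the mtDNA-encoded protein genes (black circles) and rRNA genes (green squares) against the percentage of their 50-base words found in transcripts of another gene, with a line from the lowest to the highest of the 8 libraries. The 5 protein genes at 98.0% or more average 111 to 519 FPKM, and mt-Atp8 is the lowest at 0% shared.

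Across the 8 libraries the members did not follow the mtDNA-encoded share in 1 direction. Members were here rescaled to an equal total of FPKM outside mtDNA, and 10 relations were computed. FPKM itself is divided by a read total, and mtDNA held 7.86 to 13.4% of the rebuilt reads. The rescaling divides by summed FPKM instead. Over all genes that sum was 450265 in control 1, 467217 in control 2 and 353291 to 392047 in the others. As such totals differ between libraries, the rescaling can itself move r. Ssbp1 had the highest positive value (Pearson r = 0.76, permutation p = 0.0288, adjusted p = 0.0998; Spearman rho = 0.88, permutation p = 0.00724, adjusted p = 0.0724). Tfam (r = -0.81, permutation p = 0.0132, adjusted p = 0.0998; rho = -0.71, permutation p = 0.0576, adjusted p = 0.192) and Lrpprc (r = -0.75, permutation p = 0.0299, adjusted p = 0.0998; rho = -0.74, permutation p = 0.0458, adjusted p = 0.192) had negative values. None of the 10 passed after adjustment. For Polrmt r was -0.17 and for Tfb1m 0.16, the values nearest to 0.

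The share was above 23% in 3 libraries (control 1, control 2 and cHET 1) and 20.6% or less in the other 5. Without the 2 libraries farthest from the median share, control 1 and cHET 1, r over the remaining 6 was 0.996 for Ssbp1 (exact permutation, p = 0.00278, adjusted p = 0.0278). Of these 6, control 2 alone had a share above 23%. Over the same 6, r was -0.80 for Lrpprc (exact permutation, p = 0.0569) and -0.46 for Tfam (exact permutation, p = 0.344). With 1 library left out, r of Tfam was -0.65 without control 1, -0.78 without cHET 1 and -0.97 without cHET 4. Some relations, that of Tfam among them, also depended on the rescaling. With FPKM as deposited, r over the 8 libraries was -0.34 for Tfam (permutation, adjusted p = 0.665), beside 0.77 for Ssbp1 and -0.74 for Lrpprc (permutation, adjusted p = 0.179 each). In that form r of Polrmt was 0.34, against -0.17 rescaled, and r of Top1mt 0.056, against -0.42 rescaled. No correlation is given within the groups of 4 libraries. The mean log2 level of nuclear protein-coding genes with short transcripts (1898 bases or less) minus that of genes with long ones (4483.5 bases or more) also differed between libraries: it was 1.70, 1.90, 1.39 and 1.19 in control 1 to 4 and 1.42, 1.48, 1.28 and 1.39 in cHET 1 to 4. Control 2 and control 1 were highest. Against the mtDNA-encoded share this measure had r = 0.66 (permutation p = 0.0784) and rho = 0.67 (permutation p = 0.0831), and r = 0.77 without control 1 and cHET 1 (exact permutation, p = 0.106), a relation computed apart from the 10 above and not adjusted. The part of transcript length in the relations of the members was not tested.

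**Figure D4:**
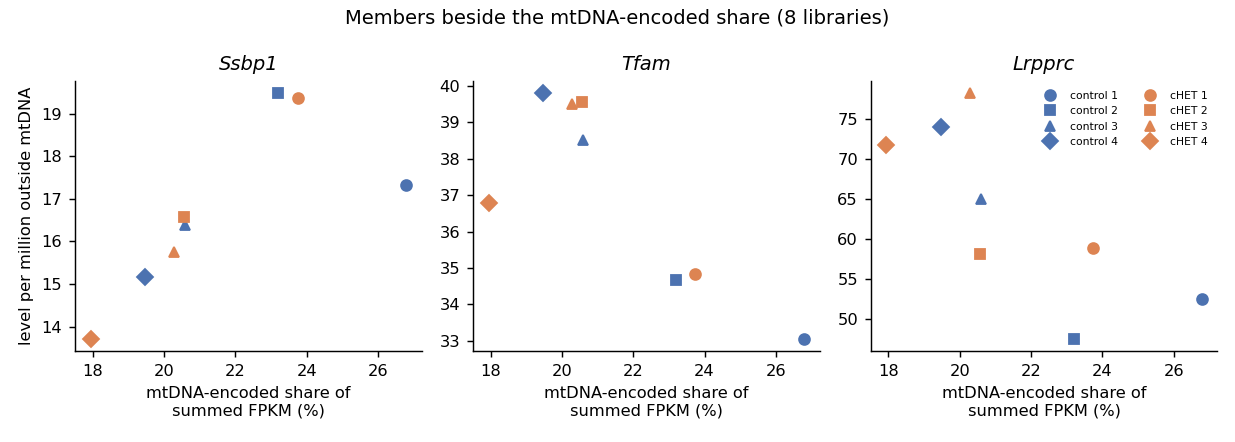
Levels of Ssbp1, Tfam and Lrpprc rescaled to an equal total of FPKM outside mtDNA (y axes, each with its own range, not starting at 0) against the mtDNA-encoded share of summed FPKM, 1 point per library. Ssbp1 runs upward except in control 1 at a share of 26.8%, and Tfam and Lrpprc run downward with exceptions, among them Tfam at the lowest share, 17.9% (cHET 4), which lies at 36.8, below the next 4 libraries at 38.5 to 39.8.

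The wider pathway was read from 6 lists holding 80 genes in the table, of which 76 were tested. Over all genes 0 of the 76 passed (limma), in either direction, and before adjustment 3 were higher and 3 lower at a p under 0.05, or 7.89% against 8.95% of all genes tested. The groups did not overlap for 2 of 76 genes (2.63%, against 4.74%), and these were Mterf2 and Dguok.

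Transcription elongation and termination factors had 0 of 7 past the test, 5 of 7 below 0 and a median log2 fold change of -0.16. Mterf2, of the mitochondrial termination factor family, had the smallest p of the 76 genes. It was at 7.61, 6.57, 5.17 and 5.05 FPKM in control and at 4.31, 3.81, 3.94 and 3.75 in cHET. Every cHET library lay below every control, and the highest 2 values were those of control 1 and control 2 (log2 fold change -0.51, SE 0.12; limma, adjusted p = 0.337). Mterf2 overlaps Tmem263, whose transcripts hold 19.7% of its words. Tefm, the elongation factor of Polrmt, averaged 10.9 ± 1.49 FPKM (control) and 9.502 ± 0.652 (cHET; SD, n = 4; log2 fold change -0.17; limma, adjusted p = 0.643).

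Genes of nucleotide supply had 0 of 15 past the test and a median of 0.042, with 2 higher and 2 lower before adjustment. The salvage kinases of mitochondria were the lower ones. Dguok, the deoxyguanosine kinase, was at 8.29, 8.26, 6.42 and 6.42 FPKM in control and 6.41, 5.96, 5.70 and 5.67 in cHET, where the margin between cHET 1 and the lowest control was under 0.05 FPKM (log2 fold change -0.26; limma, adjusted p = 0.518). Tk2, the thymidine kinase, was at 4.56 ± 0.570 and 3.69 ± 0.331 FPKM (-0.24; limma, adjusted p = 0.519). The subunits of ribonucleotide reductase, which also serves nuclear DNA synthesis, were the higher ones, with Rrm2 at 40.7 ± 9.45 and 63.3 ± 13.7 FPKM (0.63; limma, adjusted p = 0.44) and Rrm1 at 11.1 ± 1.28 and 14.8 ± 2.65 (0.37; limma, adjusted p = 0.485; SD, n = 4). The 6 proliferation markers were all above 0 as well, and their part in these values was not tested. Rrm2b, the subunit for resting cells, was at 2.53 ± 0.362 and 2.62 ± 0.256 FPKM.

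The other 4 lists had 0 members past the test. Replication and repair accessory genes had a median of 0.11 over 14 genes, with the uracil glycosylase Ung at 0.38 and the ligase Lig3 at 0.28. RNA processing and stability genes had a median of 0.061 over 23, with the exoribonuclease Pnpt1 at 0.17 and Tbrg4 at 0.22. Upstream regulators had a median of 0.044 over 11, with the coactivator Pprc1, at 5.64 ± 0.891 against 6.97 ± 0.767 FPKM (SD, n = 4), the 1 gene with an unadjusted p under 0.05 (log2 fold change 0.27; limma, adjusted p = 0.547) and Esrrg at 0.29. The coactivator Ppargc1a was at 13.7 ± 3.09 and 13.7 ± 2.57 FPKM. Mitochondrial proteases and chaperones had a median of 0.13 over 6, with Dnaja3 at 0.19, Hspa9 at 0.28 and the protease Lonp1 at 0.046.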

How the data were processed

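Each library was 1 heart sample, and the series calls the 4 of each group biological replicates. The authors deposited FPKM values, 1 per gene and library, with the gene length they used. Tools named in the submitters' processing notes are DESeq2 1.20.0, HISAT2 2.0.5 and featureCounts 1.5.0-p3, and the build named is mm9. Of 54495 identifiers also in GENCODE M21, 98.3% had the GRCm38 start and end given there, so coordinates are given as GRCm38. Among the members 9 of 10 had the same start and end as there. FPKM times length was a whole multiple of 1 step per library for 100% of values (within 0.05 reads), which gave rebuilt reads. Whether counting used strand is not given in the sources used here.

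The log2 of FPKM + 1 was fitted in R 4.3.3 by limma 3.58.1 (trend and robust), cHET against control, for genes with a mean of at least 1 FPKM, adjusted by Benjamini-Hochberg over all of them at 0.05. Fold changes of low genes are understated by the added 1. Ratios, shares and correlations used exact permutation tests. Members and lists were chosen with earlier results of these data known. All 10 members are named, and of each pathway list the 2 genes with the smallest p, with Slirp and Tefm. Gabpa, Nrf1, Yy1, Dguok, Tk2, Rrm2b, Ppargc1a, Lonp1 and Mrpl43 were named after their values were seen. Motifs and the 50-base word comparison (GENCODE M21 transcripts, both strands) were also added then. Of 81 list symbols 80 were found.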

Additional observations from a re-analysis of the deposited data

Results flagged for a closer look

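In 3 of 56 groups of 4 values examined, 1 library stood far from the other 3 of its group, where chance gives about 1 in 20. Twnk was at 8.50 FPKM in cHET 3, against 6.51 to 6.83 in the other cHET libraries. The ratio of Polg2 to Polg was 0.183 in control 4, against 0.252 to 0.267 in the other controls. The ratio of Top1mt to Polrmt was 0.648 in control 2, against 0.511 to 0.530 in the other controls.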

How the results depend on the processing

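Under the 20 alternatives (other pseudocount, filters, scalings, variance models, voom, library weights, sex of the animal read from Xist and Ddx3y, replicate block and libraries left out), 0 members and 0 of the pathway genes passed the test, and the smallest adjusted p of a member was 0.322, for Tfb1m without control 4. Control 1, control 3 and cHET 1 were read as male and the other libraries as female, so sex was not balanced between the groups. With a mean of at least 5 FPKM, 7 members were tested. The members' median was 0.11 under TPM and 0.076 without mtDNA-encoded genes, where the median of all genes was 0.10 and 0.07. Of 197 member fold changes 19 turned sign, among them Tfam under TPM (0.0796), scaling without mtDNA-encoded genes (0.0462) and voom (0.00914), Top1mt under quantile normalization (-0.0205) and with sex as a covariate (-0.0123), Tfb2m with library weights (-0.0301), and Tfb2m (-0.0767), Ssbp1 (0.0796) and Lrpprc (-0.0118) without control 1 and 2. Without control 1 and 2 the difference in share (0.601 percentage points), the ratio of Top1mt to Polrmt (0.054), mt-Nd6 to heavy-strand genes (0.014) and mtDNA protein genes to the members (0.12, all log2 differences) turned as well. The correlation with the share turned for Top1mt (0.056; 0.057 with a pseudocount of 0.1) and Polrmt (0.34 and 0.34) in FPKM as deposited, for Polrmt (0.30) and Tfb1m (-0.64) without control 1 and 2, and for Polg2 (-0.017) without the farthest 2 libraries. The cause was not tested.

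With 1 library left out, the difference in share ran from -2.91 to -0.453 percentage points. Log2 fold changes ran from 0.0011 to 0.11 for Polg, -0.22 to -0.061 for Polg2, 0.022 to 0.13 for Twnk, -0.20 to -0.0071 for Ssbp1, 0.027 to 0.16 for Lrpprc, -0.32 to -0.17 for Tfb1m, -0.0445 to 0.0497 for Top1mt, -0.0098 to 0.052 for Polrmt, -0.041 to 0.025 for Tfam and -0.0565 to 0.0795 for Tfb2m. For the log2 ratios they ran from -0.10 to 0.028 (Tfam to Polrmt), -0.078 to 0.066 (Top1mt to Polrmt), -0.038 to 0.11 (Twnk to Polg) and -0.21 to 0.64 (Slirp to Lrpprc). Correlations with the share ran from -0.38 to 0.51 for Tfb1m and -0.31 to 0.036 for Polrmt. That of Ssbp1 was 0.99 without control 1 (adjusted p = 0.00794) and 0.99 without control 1 and 2 (0.0278), and that of Tfam -0.97 without cHET 4 (0.0119), each then past the threshold by permutation. Same-numbered libraries correlated at 0.29, 0.27, 0.052 and 0.057 in their deviations from the group means, so the numbers are not shown to pair them. With the replicate block, 1 gene in place of 3 passed over all genes and 0 members did, and the difference in share kept its -1.88 percentage points (exact permutation within pairs, p = 0.125, the smallest possible).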
